A study of Mus musculus with 8 samples.

Results

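Transcripts of a single gene can stop at different places, and 204 mouse genes that did so in intestinal organoids are described here. The deposited values list each transcription end, meaning the last exon of one or more assembled transcripts, with its level in FPKM, which scales fragments by transcript length and by library size. Members were chosen by level and mean share, not by the difference between the groups. A gene was taken if its ends summed to at least 5 FPKM in every sample and if at least 2 of its ends each held, on average over the 8 samples, 10% or more of that sum. This chose 204 of 12345 genes with a listed end, and 426 of 17318 ends. The measure compared was the share of the most distal end, the one that lies furthest downstream on the gene's strand. In 4 of the 204 genes the counted ends lay on both strands, so that no distal end could be defined, and 200 genes were compared.

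Organoids are small epithelial cultures grown from crypts, the pits of the intestinal lining that hold its stem cells. They were raised in Matrigel with IntestiCult OGM medium from MG53-TG mice, which overexpress MG53 (also named TRIM72) globally, and from their wild type littermates, WT, which carry no transgene by their label. There were 4 samples in each group, with no further treatment given in the labels. The age of the animals, and whether the samples of a group came from separate animals, were not given in the sources used here, so p-values measure only the spread between these samples. In several passages of the study's text the crypt organoids come from MG53;Lgr5 mice, a cross of MG53-TG with the Lgr5-EGFP-IRES-CreERT2 line. The labels say MG53-TG, and the labels were followed.

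A pre-mRNA is cut and polyadenylated a short way downstream of a signal, most often the hexamer AATAAA or its variant ATTAAA, which the CPSF complex reads. A cut in an intron gives a shorter transcript with a last exon of its own, and often a protein with another C-terminus or no full reading frame. U1 snRNP, the particle that marks the start of introns, also shields introns from such early cuts, and the CFIm complex of Nudt21, Cpsf6 and Cpsf7 favours distal sites. Several sites inside a single last exon are a further form of this choice. No pair of rows in a sample shared a last exon's start, so such sites were not listed apart and could not be examined.

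The members fell into 3 forms, by the most distal end and the next counted end upstream of it. In 143 genes these were separate last exons, whose final bases lay between 283 bases (Srrt) and 309156 bases (Vti1a) apart, with a median of 6959. In 27 genes the last exons overlapped. In 30 genes they shared the final base and differed only in where the last exon began, so that these are alternative last introns rather than alternative ends. Of the 200 genes, 184 had 2 counted ends, 14 had 3 and 2 had 4. Where a gene had 3 or 4, the end next to the distal one was not the most proximal one, and other pairs were not classed.

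The proximal and the distal end differed in what the annotation (GENCODE vM21, GRCm38) places there. By the class of the annotated transcript, the distal end was protein-coding in 168 genes and the proximal end in 137. Retained introns stood at 22 proximal ends and 2 distal ends. Stops were compared between the distal end and the next counted end upstream. Both were coding with different stops in 95 genes and with the same stop in 20. Of these 2 ends, the distal one alone was coding in 53 genes, the upstream one alone in 25 and neither in 7. These counts by stop hold slightly more coding upstream ends than the 137 by class. The 137 are of the most proximal end, which is another end where a gene had more than 2 counted ends. In 17 genes the ends lay in different annotated genes, and in 23 at least 1 end matched no annotated last exon. In 8 genes all ends lay in a gene other than the one named.

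The last 30 bases before an end show whether the usual signal is there. They are printed for 5 genes that return in the results, 5′ to 3′ on the transcript's strand, with AATAAA or ATTAAA in capitals, and were read from GENCODE transcripts of GRCm38 that end at the same base. Asah2, which also returns, had neither hexamer at either end and is not printed. Ewsr1 is on the minus strand at chr11:5080418-5080447 (proximal), chr11:5071417-5071446 (middle) and chr11:5069689-5069718 (distal).
Ewsr1 proximal: taacATTAAAgtgtaaactttgtgtttaaa
Ewsr1 middle: tcccttgagaaacttagttgaatAATAAAc
Ewsr1 distal: taAATAAAattccaaatgtttataaactgt

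Anapc1 (minus strand, chr2:128617573-128617602 and chr2:128610104-128610133), Uggt1 (minus strand, chr1:36162226-36162255 and chr1:36140027-36140056) and Sis (minus strand, chr3:72965092-72965121 and chr3:72888557-72888586) have the hexamer at the distal end only.
Anapc1 proximal: cctgtggtgaagtgcactgttgatgctacc
Anapc1 distal: tgaccccAATAAActcattatattgctaaa
Uggt1 proximal: ggaacttcagccaacccaacaattgtggac
Uggt1 distal: aacacAATAAAattcctcctctcttcttac
Sis proximal: actcagactctttaattcataaaatttgtg
Sis distal: gaaacagaaAATAAAagttgtataaataca

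Tmem208 (plus strand, chr8:105329028-105329057 and chr8:105335190-105335219) has it at the proximal end only.
Tmem208 proximal: cactaAATAAAtagtttcgaatgtggctaa
Tmem208 distal: actcaatttgtgttgaaatataaatgctac

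Either hexamer was found in 104 of 160 distal ends that could be read (65.0%) and in 70 of 179 proximal ends (39.1%), against 7380 of 15073 of all listed ends (49.0%). By class, it stood at 165 of 294 protein-coding ends of members (56.1%) and at 1 of 23 retained-intron ends (4.35%). A match is a description of these letters in this window, searched on the transcript's strand alone, and its absence says nothing of the factors that cut there.

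Over the whole series, the summed FPKM of all ends lay between 204952 and 210253 in WT and between 212235 and 222461 in MG53-TG. Read depth cannot be recovered from these estimates, so no counting interval is given. Trim72, the overexpressed gene, had no listed end in any of the 4 WT samples and 16.4, 27.4, 31.9 and 36.5 FPKM in MG53-TG 1 to 4. Within MG53-TG, samples 1 and 2 lay close together, as did 3 and 4. The median absolute log2 difference over genes was 0.161 and 0.164 within these pairs and 0.306 to 0.351 between them, against 0.145 to 0.190 among the WT samples. In limma on log2(FPKM + 1), 14.7% of 8386 genes were higher and 27.5% lower in MG53-TG. On that background all 16 enterocyte markers rose, with a summed level of 1101 to 1268 FPKM in WT and 12321 to 13620 in MG53-TG, and 9 of 13 proliferation markers fell (654 to 707 against 160 to 495 FPKM). Markers of crypt stem cells fell in 7 of 8, of goblet cells in 5 of 6 and of Paneth cells in 7 of 8 with 1 higher, and of enteroendocrine cells 4 of 9 rose. With median-of-ratios scaling the falls were 6 for proliferation, 5 for crypt stem cells, 4 for goblet cells and 6 for Paneth cells, and the enterocyte and enteroendocrine counts were as before. Genes of fatty acid oxidation and other PPAR alpha targets rose in 20 of 23 and fell in 1. Of the immune list Cd68, of macrophages, fell from 3.75 to 9.08 FPKM in WT to 0.469 to 1.05 FPKM in MG53-TG (log2 fold change -1.92, SE 0.24, limma adjusted p = 0.000475), Cd3e was at 0.0913 FPKM in 1 WT sample alone, and the other 8, among them Ptprc, had no listed end. Of the mesenchyme list the collagen genes Col1a1, Col1a2 and Col3a1 were at 0 in all WT samples and MG53-TG 1 and at 0.465 to 2.07 FPKM in MG53-TG 2 to 4. Vim was at 1.69 to 3.10 FPKM in WT and 0.834 to 1.99 FPKM in MG53-TG (log2 fold change -0.52, SE 0.21, limma adjusted p = 0.0745), and 5 of 10, among them Pdgfra, had no listed end. A gene with no listed end is not shown to be absent, since the epithelial markers Cdh1 and Cldn3 had none either. In bulk samples, fewer cells of a type and less RNA per cell cannot be told apart, and the part of cell makeup in the results below was not tested.

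The first comparison asked whether the distal end took another share in MG53-TG than in WT. Across the 200 genes the distal share had similar medians in both groups. The median over genes was 66.2%, 63.2%, 66.4% and 67.8% in WT 1 to 4 and 65.0%, 64.1%, 64.2% and 59.6% in MG53-TG 1 to 4, so that the groups overlapped. The mean share was higher in MG53-TG in 94 genes and lower in 106, and the median difference was -0.43 percentage points, from -49.5 to 56.5 points. Over all 832 genes tested it was -0.01 points. In the plot of group means the genes lie on both sides of the line of equality.

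**Figure D1:**
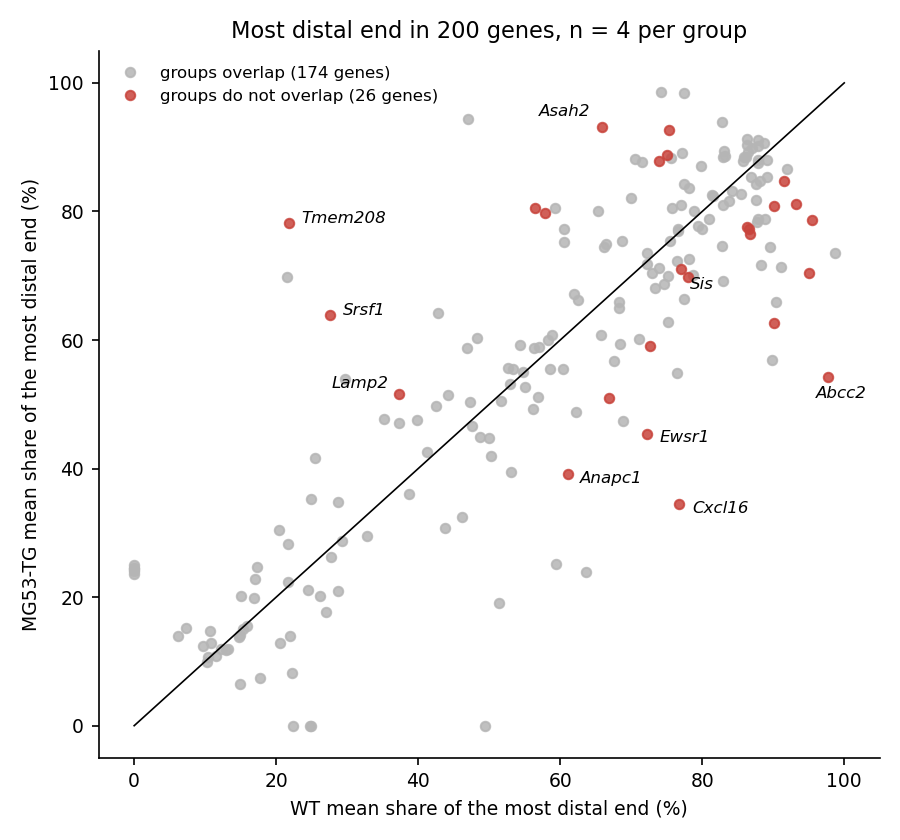
Mean share of the most distal end (% of the gene's summed ends) in WT (x axis) and MG53-TG (y axis) for 200 genes, n = 4 per group, 1 point per gene. The line marks equal shares, and the 26 genes in red, 9 above it and 17 below it, are those whose 4 WT and 4 MG53-TG samples do not overlap.

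No member passed the test. With limma on the arcsine square root of the share and Benjamini-Hochberg adjustment over all 832 genes with at least 2 such ends, 0 of 200 members had an adjusted p of at most 0.05, where 0.12% of the genes tested were called. The smallest adjusted p among members was 0.277. At an unadjusted limma p under 0.05 there were 25 members, where the rate over all genes tested was 9.5%. The groups did not overlap in 26 members (13%), against 6.85% of all genes tested, and this difference was given no test. The exact permutation test gives each of these 26 genes a p of 0.029 (two-sided), the smallest that 70 relabellings of 4 against 4 allow, before any adjustment. Leaving out 1 sample at a time gave 1 call without WT 1 (Wdr45b) and 1 without MG53-TG 3 (Asah2). Each of these genes had been chosen through an end over 10% in 1 group alone, and each sample left out was the one unlike its group, so nothing is supported by these calls. The Wdr45b distal share was 61.3% in WT 1, 100% in the other WT samples and 55.9 to 73.9% in MG53-TG.

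The genes with groups apart were found in 20 of the 143 genes with separate last exons, 6 of the 30 with a shared final base and 0 of the 27 with overlapping last exons. Where the distal end was coding and the next counted end upstream was not, 9 of 53 genes were apart, 8 of them with a lower distal share in MG53-TG. Over all 53 the share was higher on average in 27 and lower in 26, with a median difference of 0.235 points, and among all genes tested 39 of the 57 apart were lower. Where of these ends the upstream one alone was coding, 2 of 25 were apart (1 higher, 1 lower). Where both of these ends were coding, 15 of 95 with different stops were apart (7 higher, 8 lower) and 0 of 20 with the same stop. Of the 7 where neither was coding 0 were apart. These shares were not tested against each other. Between samples the median absolute difference of the distal share over members was 5.97 to 7.45 points among WT, 6.28 to 8.63 among MG53-TG and 7.36 to 10.6 between the groups, so the ranges overlapped.

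The choice of members bears on that count. In 59 of the 200 genes an end reached 10% in 1 group alone, so that this end was counted through the group in which it was high. In 49 of them it was 1 of 2 counted ends, and the gene itself entered that way, while the other 10 had 3 or more counted ends. Groups were apart in 12 of these 59. Of the other 141 genes 14 did (9.93%). The members' spread was also smaller than that of the genes tested, with a median SD of 9.21 points in WT and 8.67 in MG53-TG against 14.6 and 15.8 over all 832 genes. The denominator also includes ends below the 10% limit, which held over 10% of the sum in at least 1 sample in 51 members and over 50% in 4. Over the counted ends alone 27 members were apart, 25 of them the same, without Tmem208 and with Dcaf6 and Dgat1 in addition. Just inside the level limit stood Cyhr1, Zfp746 and Fbxw2, with a lowest sum of 5.04 FPKM each, and just outside it Aaed1 (4.95), Pus3 (4.93) and Ptpn23 (4.91). The only gene called among the 832 was Ero1l, no member, with a lowest sum of 0.0571 FPKM.

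Replicates of a group often lay far apart. The share spanned over 50 points within WT or within MG53-TG in 45 of the 200 genes, and over 90 points in 14. Only 64 genes kept every group within 20 points. Slc33a1, the acetyl-CoA transporter of the endoplasmic reticulum, had a distal share of 86.0% in WT 1 and 0% in the other 3 WT samples, and of 95.7%, 88.7%, 94.7% and 0% in MG53-TG 1 to 4. It was chosen here after its values were seen, as an example of a share that moves between near nothing and near all. Both of its ends code for 550 residues. Farsb, a subunit of the phenylalanine-tRNA synthetase chosen in the same way, had a distal share of 0% in MG53-TG 1 and of 96.1 to 99.3% in the other 7 samples.

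The 10 genes with the largest difference among those whose groups did not overlap are given next, as a description. In 5 of these 10, namely Abcc2, Ankra2, Asah2, Ewsr1 and Uggt1, the proximal end had reached 10% in 1 group alone. The level of such an end is given below as values, with no test, since the choice favoured a difference in it.

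Tmem208, a membrane protein of the endoplasmic reticulum, had the largest difference of means. Its distal end at chr8:105334643-105335219 lies 6162 bases past the proximal one at chr8:105328772-105329057, and the coding transcripts at the ends hold 176 and 173 codons. Its share was 55.7%, 2.99%, 26.4% and 1.88% in WT 1 to 4 and 98.3%, 75.3%, 58.5% and 80.8% in MG53-TG 1 to 4. All MG53-TG samples were above all WT samples, though the highest WT and the lowest MG53-TG sample were only a few points apart. This rests on WT 3, where ends below the 10% limit held 72.7% of the sum. Over the 2 counted ends alone WT 3 was at 97.0% and the groups overlapped, with a difference of 38.8 points. The difference was 56.5 points (SE 15.1, n = 4 per group, limma adjusted p = 0.277). Neither end passed the test on its own level, with adjusted p of 0.0604 for the distal and 0.304 for the proximal end in limma.

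Abcc2 encodes an apical efflux pump of enterocytes and hepatocytes. Its distal end at chr19:43837428-43840740 is the annotated one, and its proximal end at chr19:43786420-43789493 matches no annotated last exon. In WT the distal share was 93.7%, 99.2%, 98.6% and 99.4%, and in MG53-TG it was 20.6%, 16.9%, 88.1% and 91.4%. MG53-TG 1 and 2 stood far below the others, along the same split as in the sample distances. In MG53-TG 1, however, ends below the 10% limit held 71.0% of the sum (34.4 FPKM), and over the 2 counted ends alone the distal share was 71.2% there, 19.3% in MG53-TG 2, 88.3% and 92.0% in MG53-TG 3 and 4 and 94.2 to 100% in WT. The difference was -43.5 points (SE 20.6, n = 4, limma adjusted p = 0.425). Without MG53-TG 3 and 4, left out after the split was seen, it was -78.96 points, and the call made there is no support, since these are the samples with a high share. The proximal end, counted through MG53-TG alone, had 1.36 FPKM in WT 1 and no listed value in WT 2 to 4, and its MG53-TG levels were 4.05, 7.33, 9.17 and 9.34 FPKM. The distal end was at 21.8 to 23.7 FPKM in WT and at 9.998, 1.75, 69.0 and 107 FPKM in MG53-TG.

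Cxcl16, a membrane-bound chemokine, Srsf1, a splicing factor, and Ankra2, an ankyrin repeat protein, are genes whose ends share the final base. In Cxcl16 the end named distal has a last exon of 575 bases annotated for nonsense-mediated decay, the pathway that removes transcripts with an early stop. Its share was 83.6%, 81.8%, 71.2% and 70.5% in WT and 51.2%, 2.21%, 61.3% and 23.1% in MG53-TG, a difference of -42.4 points (SE 13.9, n = 4, limma adjusted p = 0.398). All MG53-TG samples were below all WT samples. The level of that form had a limma adjusted p of 0.0253 for a log2 fold change of -1.85 (SE 0.53), which held in 7 of 14 alternatives, and the coding form of 246 codons was at 1.78 to 5.27 FPKM in WT and 2.76 to 4.93 in MG53-TG.

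In Srsf1 the form with the shorter last exon is likewise annotated for nonsense-mediated decay. Its share was 0.576%, 25.0%, 48.0% and 36.7% in WT and 51.4%, 49.3%, 96.4% and 58.2% in MG53-TG. The difference was 36.2 points (n = 4, limma adjusted p = 0.454), with the highest WT sample just under the lowest MG53-TG sample. The coding form of 248 codons was at 37.0 to 58.8 FPKM in WT and at 22.1, 33.1, 0.287 and 14.1 FPKM in MG53-TG, which did not pass the test (limma adjusted p = 0.0953). The sum of the Srsf1 ends fell from 74.5 ± 11.2 FPKM to 48.6 ± 15.2 FPKM (SD, n = 4, limma adjusted p = 0.0387). After median-of-ratios scaling, limma gave that sum an adjusted p of 0.0746.

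In Ankra2 the distal share was 85.1%, 95.5%, 95.5% and 84.5% in WT and 69.7%, 48.4%, 59.6% and 73.0% in MG53-TG. The difference was -27.5 points (SE 6.36, n = 4, limma adjusted p = 0.277), and the lowest WT sample stood more than 10 points above the highest MG53-TG sample. Both forms are coding, with 312 and 304 codons. The proximal form was at 1.44, 0.0361, 0.122 and 1.61 FPKM in WT and at 1.48, 2.58, 3.25 and 2.11 FPKM in MG53-TG. In MG53-TG 2 ends below the 10% limit held 24.2%, and over the counted ends its distal share was 63.9%.

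Asah2, the neutral ceramidase of the brush border, had a distal share of 60.9%, 67.5%, 71.9% and 63.0% in WT and of 99.1%, 98.8%, 75.1% and 99.6% in MG53-TG. The difference was 27.3 points (SE 6.49, n = 4, limma adjusted p = 0.277). MG53-TG 1, 2 and 4 were near 100%, and MG53-TG 3 was just above the highest WT sample. Without MG53-TG 3 the difference was 33.3 points. The distal end at chr19:31984654-31986947, the coding one with 756 codons, rose from 3.93 to 6.14 FPKM in WT to 19.2, 16.7, 61.9 and 62.0 FPKM (limma adjusted p = 0.00326). The non-coding proximal end at chr19:32012463-32012520 was at 2.31 to 2.88 FPKM in WT and at 0.181, 0.199, 20.5 and 0.255 FPKM in MG53-TG, so that MG53-TG 3 alone had a high level.

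Ewsr1, an RNA-binding protein of the FET family, had 3 counted ends. The distal one held 78.2%, 88.1%, 66.5% and 56.0% in WT and 49.5%, 46.3%, 45.2% and 40.7% in MG53-TG. The difference was -26.8 points (SE 7.20, n = 4, limma adjusted p = 0.342). The proximal end at chr11:5080418-5080688, with a reading frame of 354 codons against 661 at the distal end, had no listed row in any WT sample and 15.8, 13.7, 14.6 and 14.4 FPKM in MG53-TG. It was counted through MG53-TG alone, while the other 2 ends held over 10% in both groups. The distal end at chr11:5069689-5070103 fell from 64.1, 80.6, 54.3 and 50.8 FPKM to 41.3, 37.6, 24.4 and 24.1 FPKM, by 0.97 on the log2 scale (SE 0.22, limma adjusted p = 0.00988). Without MG53-TG 3 and 4 it was -0.63 and no longer passed. The middle end, which is non-coding, was at 10.5 to 39.4 FPKM in WT and 13.5 to 29.6 in MG53-TG.

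Uggt1, which tags misfolded glycoproteins in the endoplasmic reticulum, had a distal share of 95.0%, 95.0%, 95.6% and 94.3% in WT and of 91.6%, 60.7%, 44.4% and 85.1% in MG53-TG. The WT samples lay within 2 points of each other, and all MG53-TG samples were below them by amounts that ranged widely. The difference was -24.5 points (SE 11.0, n = 4, limma adjusted p = 0.425), and -15.8 points without MG53-TG 3. The distal end at chr1:36140027-36144251, with 1551 codons, fell by 1.10 on the log2 scale (SE 0.21, limma adjusted p = 0.0045). The proximal end, annotated for nonsense-mediated decay, was at 0.728 to 1.02 FPKM in WT and at 0.964, 4.13, 7.44 and 2.01 FPKM in MG53-TG.

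Psmg3, a chaperone of proteasome assembly, is a merged locus. Its distal end at chr5:139802485-139805741 is the last exon of the neighbouring gene Tmem184a, so the share compares the ends of 2 genes. It was 59.3%, 64.9%, 55.9% and 45.5% in WT and 68.8%, 69.2%, 86.0% and 98.4% in MG53-TG, a difference of 24.2 points (SE 8.23, n = 4, limma adjusted p = 0.425). Neither end passed the test on its own level.

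Anapc1, the largest subunit of the anaphase-promoting complex, had a distal share of 61.5%, 51.3%, 66.0% and 65.4% in WT and of 43.7%, 34.4%, 36.8% and 41.5% in MG53-TG. The difference was -21.9 points (SE 4.03, n = 4, limma adjusted p = 0.338), and the groups were separated by more than 7 points. The distal end at chr2:128610104-128613063, with 1944 codons, fell from 11.6, 11.7, 11.98 and 11.2 FPKM in WT to 4.42, 3.17, 2.43 and 4.38 FPKM, by 1.48 on the log2 scale (SE 0.16, limma adjusted p = 0.000262). The non-coding proximal end at chr2:128617573-128617752 was at 4.36 to 6.49 FPKM in WT and 3.17 to 4.93 in MG53-TG, a log2 fold change of -0.36 (SE 0.16) that did not pass (limma adjusted p = 0.107).

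**Figure D2:**
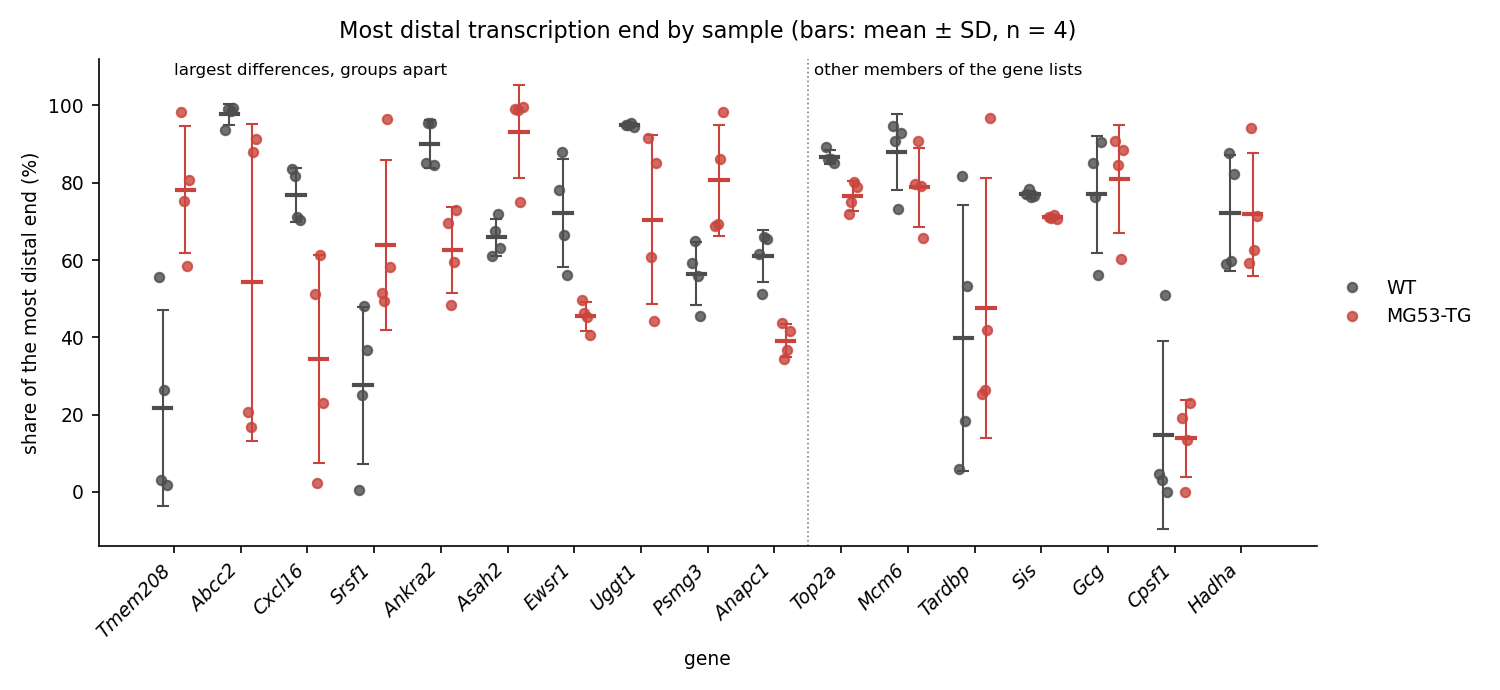
Share of the most distal end (% of the gene's summed ends, y axis) in each WT and MG53-TG sample for 17 genes (x axis), with thick lines for means and error bars for the SD of 4 samples. Left of the dotted line are the 10 genes with the largest difference and no overlap, such as Anapc1, where 51.3 to 66.0% in WT stand above 34.4 to 43.7% in MG53-TG, and right of it the other members of the gene lists.

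The other 16 genes whose groups did not overlap differed by 5.94 to 21.9 points, 5 of them with a higher and 11 with a lower distal share in MG53-TG. They were Rbm26, Rock1, Ppp4c, Wdr70, Lamp2, Pcsk5, Psmd4, Gna13, Iars2, Top2a, Mtrex, Brd8, AI837181, Ppp4r3a, Dctn4 and Sis. Those given with values here and in the next paragraphs were chosen after their values were seen, apart from Sis and Top2a, which are in the gene lists. Rbm26, an RNA-binding protein, had the largest difference of the 16, with a distal share of 59.6%, 53.0%, 60.9% and 58.1% in WT and of 94.7%, 76.3%, 70.8% and 77.5% in MG53-TG (21.9 points, SE 5.45, n = 4, limma adjusted p = 0.371). Neither Rbm26 end passed on its own level. In Lamp2, a lysosomal membrane protein whose alternative last exons encode different tails, both ends code for 415 residues. The distal share was 38.3%, 44.7%, 24.0% and 42.1% in WT and 55.6%, 49.4%, 50.5% and 50.8% in MG53-TG (14.3 points, SE 4.81, n = 4, limma adjusted p = 0.465). In Pcsk5, a proprotein convertase, the distal and proximal ends stand for proteins of 1877 and 915 residues, and the distal share was 66.7 to 79.0% in WT and 80.3 to 94.3% in MG53-TG. The distal Pcsk5 end rose, from 5.13 to 6.60 FPKM to 8.78 to 17.98 FPKM (limma adjusted p = 0.00756).

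Rock1, a kinase of the actin cytoskeleton, had a distal share of 73.5%, 79.6%, 70.9% and 77.2% in WT and of 94.6%, 93.2%, 86.0% and 97.0% in MG53-TG (17.4 points, SE 3.04, n = 4, limma adjusted p = 0.277). The proximal end, of 504 codons and over 10% in WT alone, was at 3.71 to 5.54 FPKM in WT and 0.307 to 1.45 FPKM in MG53-TG. The full-length one of 1354 codons fell by 0.52 on the log2 scale (SE 0.08, limma adjusted p = 0.00152).

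Psmd4, the ubiquitin receptor of the proteasome, has 2 coding forms of 379 and 368 codons with the same final base. Its distal share was 70.9 to 77.0% in WT and 84.3 to 91.2% in MG53-TG (13.6 points, SE 2.10, n = 4, limma adjusted p = 0.338). The 368-codon form fell from 13.1, 11.6, 7.77 and 7.87 FPKM to 3.90, 3.61, 3.53 and 3.10 FPKM (limma adjusted p = 0.00104), while the other form was at 25.0 to 40.3 FPKM and 21.0 to 37.8 FPKM. Wdr70, a WD repeat protein, was lower by 15.9 points (SE 2.15, n = 4, limma adjusted p = 0.425), with 65.1 to 69.5% in WT and 45.6 to 53.8% in MG53-TG. In Gna13, a G protein alpha subunit, the distal end of 377 codons fell by 0.54 on the log2 scale (SE 0.10, limma adjusted p = 0.00367), and the share was 70.3 to 74.5% in WT and 51.7 to 69.5% in MG53-TG. In Mtrex, the RNA helicase of the nuclear exosome, the share was 84.9 to 88.9% and 74.5 to 79.4%. Its coding distal end fell by 0.90 (SE 0.20, limma adjusted p = 0.00949), which passed in 13 of 14 alternatives and not without MG53-TG 3 and 4, and its retained intron stood at 1.69 to 2.45 FPKM and 1.67 to 2.06 FPKM.

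Members of the gene lists gave these values. Sis, the brush border enzyme sucrase-isomaltase, had a distal share of 77.0%, 78.3%, 76.4% and 76.5% in WT and 71.2%, 71.0%, 71.5% and 70.7% in MG53-TG. The groups did not overlap, the mean was 5.94 points lower in MG53-TG (SE 0.476, n = 4) and the spread within each group was under 2 points. Yet the limma adjusted p was 0.662, with 0.0997 to 0.772 over 24 alternatives. Top2a, the topoisomerase of dividing cells, had 85.2 to 89.3% in WT and 71.9 to 80.3% in MG53-TG, 10.1 points lower (SE 2.10, limma adjusted p = 0.425). Its ends share the final base, and the minor form is non-coding.

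The shares of 5 further members of the lists overlapped between the groups. They were Mcm6 of the replicative helicase, Gcg, which encodes proglucagon, Hadha of fatty acid oxidation, Tardbp, an RNA-binding protein, and Cpsf1, the scaffold subunit of CPSF. Their differences were -9.03, 4.00, -0.32, 7.78 and -0.86 points, and their limma adjusted p ran from 0.697 to 0.997. Leaving out 1 sample turned the sign of 4 of the 5, with ranges of -2.94 to 10.9 points for Gcg, -7.80 to 4.86 for Hadha, -8.65 to 21.8 for Tardbp and -5.77 to 11.2 for Cpsf1. Mcm6 was at -13.9 points without WT 3 and at -4.65 without MG53-TG 4. Tardbp spanned 5.82 to 81.9% among WT samples alone.

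The second comparison asked how the level of each end differed, since a share is silent on whether 1 end rose or the other fell. Of the 418 counted ends of the 200 genes, 35 were higher and 69 lower in MG53-TG by limma on log2(FPKM + 1), with an adjusted p of at most 0.05 over 9148 ends. The shares over all ends tested were 13.3% higher and 24.8% lower. Among the 63 ends that held over 10% in 1 group alone 9 were higher and 4 lower, and among the other 355 ends 26 were higher and 65 lower. Over all genes the median log2 fold change of the summed ends was -0.17, and a median-of-ratios scaling moved it by 0.16, to -0.02. On that scale 45 ends of members were higher and 40 lower, where 17.2% and 17.6% of all ends were, so the excess of lower ends depends on the scaling. Of the proximal ends 17 were higher and 30 lower, and of the distal ends 16 higher and 38 lower. Neither end was called in 115 genes, the proximal alone in 31, the distal alone in 38 and both in 16.

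**Figure D3:**
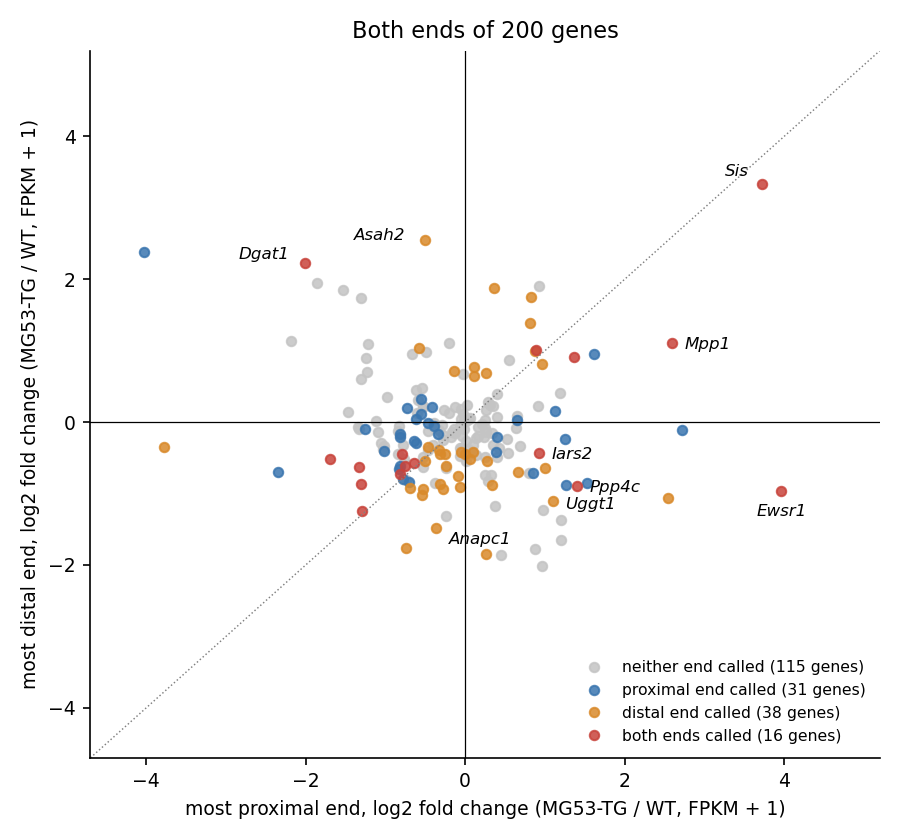
Log2 fold change (MG53-TG over WT, FPKM + 1) of the most proximal (x axis) and most distal end (y axis) in 200 genes, with colours for limma calls at an adjusted p of at most 0.05 and a dotted line of equal change. Sis lies near the line at the top right, while Dgat1 at the upper left and Ewsr1, Iars2 and Ppp4c at the lower right are the 4 genes with ends called in opposite directions, each with a proximal end over 10% in 1 group alone, and the Ewsr1 value depends on the pseudocount since its proximal end had no listed row in WT and was set to 0.

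In 4 of the 200 genes, Ewsr1, Dgat1, Iars2 and Ppp4c, 1 end was called higher and another lower, where 1.29% of 695 genes with at least 2 tested ends were. In all 4 the proximal end held over 10% in 1 group alone, in Dgat1 in WT and in the others in MG53-TG, so the count follows in part from the choice of ends. Among ends over 10% in both groups there was no such gene. The proximal levels are therefore given as a description. In Dgat1, which makes triglycerides, the coding distal end at chr15:76502015-76502388 rose from 10.7, 14.3, 9.71 and 13.1 FPKM to 49.98, 50.1, 63.0 and 77.2 FPKM (log2 fold change 2.23, SE 0.17, limma adjusted p = 6.48e-05). Its non-coding proximal end was at 4.52, 5.76, 0.520 and 5.22 FPKM in WT and 0.0701 to 0.0799 FPKM in MG53-TG. Its share of all ends overlapped, with 59.5 to 88.1% in WT and 83.0 to 91.4% in MG53-TG. Ends below the 10% limit held 4.36 to 16.8% in WT and 8.46 to 16.9% in MG53-TG, and over the 2 counted ends alone the distal share was 70.3 to 94.9% in WT and 99.8 to 99.9% in MG53-TG, with no overlap.

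Iars2, the mitochondrial isoleucyl-tRNA synthetase, is a case with 2 coding ends. The proximal one at chr1:185311846-185312527, of 560 codons, was at 1.42, 1.89, 1.58 and 2.42 FPKM in WT and 3.64, 4.52, 4.82 and 4.47 FPKM in MG53-TG. The distal one, of 1012 codons, was at 27.8 to 30.1 FPKM in WT and 16.9 to 25.4 FPKM in MG53-TG, and its fall (limma adjusted p = 0.0299) passed in 7 of 14 alternatives. Its share was 91.1 to 94.6% in WT and 74.7 to 86.4% in MG53-TG.

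Ppp4c, the catalytic subunit of protein phosphatase 4, showed the same order. Its coding distal end fell from 40.6 to 53.4 FPKM in WT to 17.1 to 30.2 FPKM (log2 fold change -0.89, SE 0.17, limma adjusted p = 0.00516). Its proximal end, a retained intron, was at 0.472 to 3.22 FPKM in WT and 4.98 to 7.39 FPKM in MG53-TG.

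**Figure D4:**
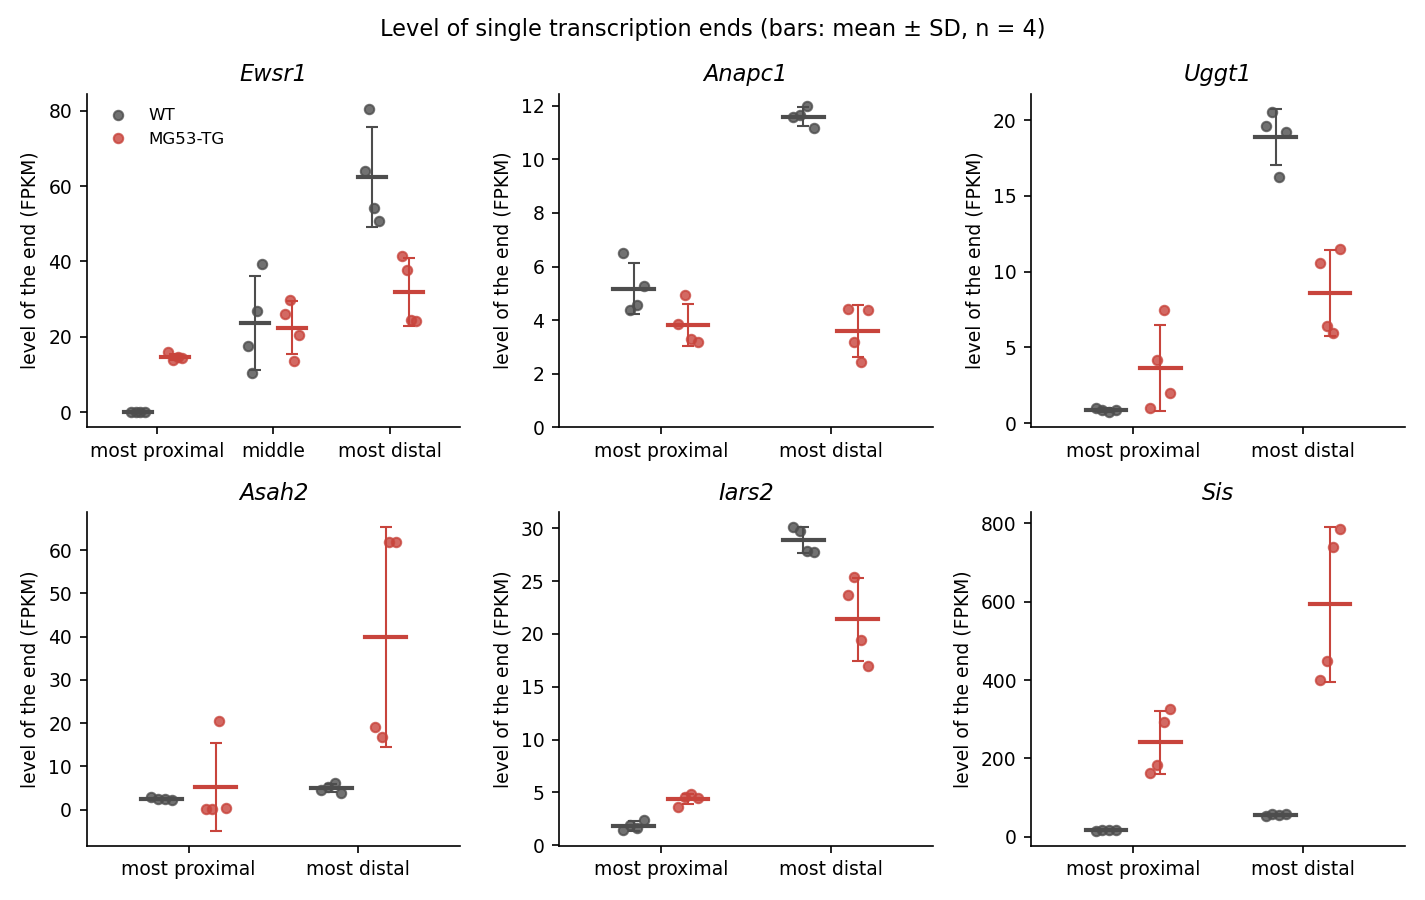
Level of each counted end (FPKM, y axis, a scale for each gene) in the 4 WT and 4 MG53-TG samples of 6 genes, with thick lines for means and error bars for SD. The proximal end of Ewsr1 is at 0 in WT and at 13.7 to 15.8 FPKM in MG53-TG, Anapc1 and Uggt1 are lower at the distal end, and both ends of Sis are higher, with MG53-TG 3 and 4 above 1 and 2.

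In 4 genes at least 2 ends rose together, namely Sis, Mpp1, Pla2g12b and S100g (2% of 200, against 2.73% of 695 genes with at least 2 tested ends). The distal Sis end rose from 52.0 to 57.7 FPKM to 400, 448, 739 and 786 FPKM (log2 fold change 3.34, SE 0.22, limma adjusted p = 2.89e-05). The proximal one, a retained intron at chr3:72965092-72965685 with 3 exons, rose from 15.5 to 17.5 FPKM to 162, 183, 294 and 326 FPKM (3.73, SE 0.22, limma adjusted p = 1.84e-05). Mpp1, a membrane scaffold protein, rose at the proximal end from 17.4, 2.71, 16.5 and 2.03 FPKM to 52.8, 47.3, 42.5 and 41.6 FPKM (2.59, SE 0.61, limma adjusted p = 0.0115). Its distal end rose by 1.11 (SE 0.25, limma adjusted p = 0.00967), and neither call held without MG53-TG 3 and 4, nor the proximal one without MG53-TG 1 and 2. S100g, the vitamin D-dependent calcium-binding protein of enterocytes, rose at both ends by 1.02 and 0.88 on the log2 scale, with each call held in 6 of 14 alternatives, and its last exons start only 3 bases apart.

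In 9 genes at least 2 ends fell together (4.5%, against 4.6% of the same 695 genes), a share near the background. They were Nipbl, Rock1, Pds5a, Zc3hav1, Manf, Mbd3, Kdm3a, Sept11 and Prickle4. Nipbl and Pds5a act on cohesin, Mbd3 and Kdm3a on chromatin. In Nipbl the ends fell by 0.76 and 0.62 on the log2 scale, and the distal share was 72.9 to 77.4% in WT and 76.1 to 84.2% in MG53-TG. In Mbd3 they fell by 1.31 and 0.86, the latter not without MG53-TG 3 and 4, and both are coding. Of the 9 genes, Rock1, Zc3hav1 and Manf have an end over 10% in 1 group alone.

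At the level of the gene, the summed ends rose in 21 members and fell in 52, where 14.7% and 27.5% of 8386 genes did. With median-of-ratios scaling 31 rose and 28 fell, where 19% and 19.4% of all genes did.

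The third comparison looked at the factors that choose ends, by the sum of their own ends. Of 16 tested genes in the list of cleavage and polyadenylation factors none rose and 6 fell, namely Cpsf2, Pabpc1, Nudt21, Sympk, Fip1l1 and Cpsf7. The list also holds Pabpc1, the cytoplasmic poly(A)-binding protein, which is among the 6. The list median log2 fold change was -0.40 against -0.17 over all genes, of which 27.5% fell. With median-of-ratios scaling 5 fell and 1 (Ssu72) rose, and the list median was -0.23 against -0.02. Cpsf2, the largest fall, was at 15.2, 15.1, 13.9 and 14.0 FPKM in WT and 8.08, 7.62, 5.08 and 4.48 FPKM in MG53-TG (log2 fold change -1.12, SE 0.17, limma adjusted p = 0.0014). Nudt21 was at 15.1 to 28.0 FPKM in WT and 7.03 to 13.5 in MG53-TG (-1.02, SE 0.26, limma adjusted p = 0.0143). Its CFIm partner Cpsf6 did not pass (-0.01, SE 0.27, limma adjusted p = 0.968). Wdr33 had the largest positive estimate, 0.69 (SE 0.45, limma adjusted p = 0.252), at levels below 4 FPKM.

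Of 19 tested genes in the list of U1 snRNP and splicing regulators none rose and 11 fell. The list also holds Xrn2 and Cdk12, and Xrn2 is among the 11. The list median was -0.50, beside 27.5% lower and a median of -0.17 over all genes. With median-of-ratios scaling 8 fell and the list median was -0.31, beside 19.4% and -0.02. Xrn2, the exonuclease that ends transcription behind the cut, fell from 37.9 to 42.4 FPKM to 11.8, 13.3, 10.04 and 15.9 FPKM (log2 fold change -1.57, SE 0.13, limma adjusted p = 6.27e-05). Esrp1, an epithelial splicing regulator, fell by 0.97 (SE 0.21, limma adjusted p = 0.00721), and the U1 proteins Snrpa and Snrnp70 by 0.72 and 0.37, the latter not with the other scaling (adjusted p = 0.129). Proliferation markers fell along with these factors, as given above, and their part in these falls was not tested.

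**Figure D5:**
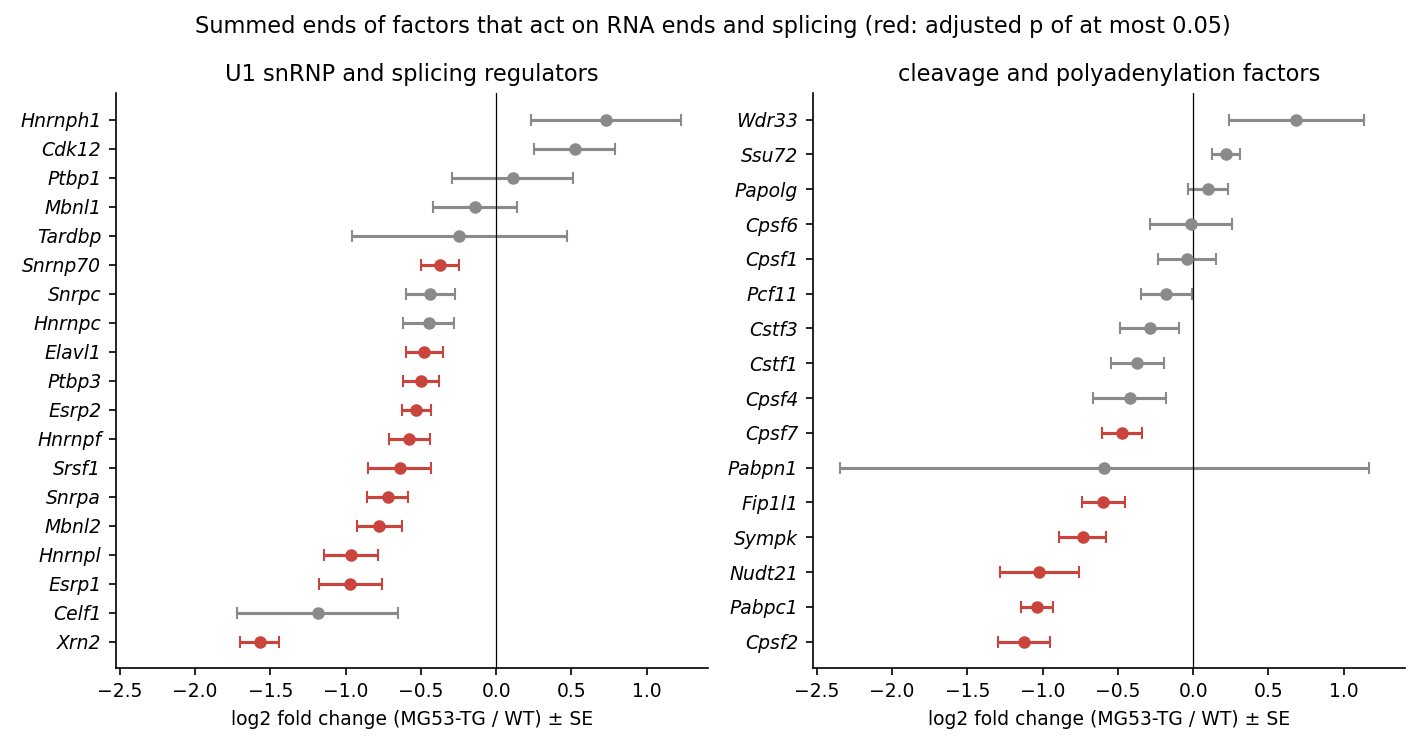
Log2 fold change (MG53-TG over WT, summed ends, FPKM + 1, x axis) with its SE for 2 gene lists (y axis). These are 19 genes of the list of U1 snRNP and splicing regulators, which also holds Xrn2 and Cdk12. The other 16 are of the list of cleavage and polyadenylation factors, which also holds Pabpc1. Red points have a limma adjusted p of at most 0.05, and all of them, from Xrn2 at -1.57 to Snrnp70 at -0.37, lie left of 0 on the scale as deposited, while with median-of-ratios scaling Ssu72 passes on the right.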

How the data were processed

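Total RNA of 4 WT and 4 MG53-TG organoid samples was sequenced. Per the labels and the submitters' processing notes, the authors trimmed reads with cutadapt 1.9.1, aligned them to mm10 with HISAT2 2.0.1 and used HTSeq 0.6.1. The authors deposited FPKM per transcript event, and the tool that made the events is not given in the sources used here. Values reach down to 1e-06 FPKM, which makes them estimates, and depth is unknown. Of the rows for transcription ends, 0.981% had no gene identifier and were left out, and 12338 of 12345 identifiers were in GENCODE vM21 (GRCm38, the same build).

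Ends were grouped by gene identifier, with absent rows as 0. The distal end was the counted end whose final base lay furthest along the strand, with the last exon's start as tie-break, and the share's denominator was the sum of all ends of the gene. Shares were tested after an arcsine square root with limma 3.58.1 (R 4.3.3, prior variance trended on the mean level) over 832 genes with a sum above 0 in all samples, and levels as log2(FPKM + 1) over genes or ends that averaged 0.5 FPKM or more. P-values were adjusted after Benjamini and Hochberg, and a call needed an adjusted p of at most 0.05. The pseudocount makes fold changes of low ends too small. For single members, shares were compared over all relabellings in an exact permutation test (two-sided). The SE of a difference in shares came from the group SDs. The scripts were tested on simulated data.

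The members, gene lists and tests were chosen with earlier results of these data known. The genes named were to be members with an adjusted p of at most 0.05, groups apart and a difference of at least 10 points. Since there were none, the 10 with the largest difference among those apart were taken, plus members of the lists. Other members given with values were chosen after their values were seen or complete a count. Alternatives changed the transformation, pseudocount, filters, share limits, denominator, grouping, scaling, weights and samples. The end-level fits, and fits without MG53-TG 1 and 2 or 3 and 4, were added after seeing the data.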

Additional observations from a re-analysis of the deposited data

Results flagged for a closer look

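The following 3 values stood alone in their group of 4, by the gap to the nearest sample relative to the group's range. The Abcc2 distal share in WT 1 was 93.7%, below 98.6 to 99.4% in the other WT samples. The Asah2 distal share in MG53-TG 3 was 75.1%, below 98.8 to 99.6% in the others. The Cpsf1 distal share in WT 3 was 50.9%, above 0 to 4.69% in the others. In all, 34 groups of 17 genes were searched, and chance alone would give about 1.7.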

How the results depend on the processing

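Of the 25 alternatives for the share, 22 left the number of members past the threshold at 0. It was 1 without WT 1 (Wdr45b) and 1 without MG53-TG 3 (Asah2), a range of 0 to 1 over the 8 fits without 1 sample, and 2 without MG53-TG 3 and 4 (Abcc2 and Asah2). All 3 genes had been chosen through an end over 10% in 1 group alone, so these calls support nothing. Members with an unadjusted p under 0.05 numbered 25, and 15 with a limit of 10 FPKM in every sample, 38 with ends of at least 5% and 16 with ends of at least 20%. Members with groups apart numbered 26, and 16, 36 and 12 with these limits, 47 without MG53-TG 1 and 2 and 45 without 3 and 4, where 2 samples face 4. Without 1 sample they were 29 to 36. The limits also change the number of members, and the shares over all genes tested under these settings are not set beside these counts. Neither the counts of unadjusted p nor those of groups apart are therefore read as results about the members. Median-of-ratios scaling lowered the members with a lower sum from 52 to 28 and the lower ends from 69 to 40. Without 1 sample, lower sums ran from 37 to 63 and lower ends from 46 to 83. The cause was not tested beyond the construction of each alternative. With the replicate number as a block, 0 members passed, 21 had an unadjusted p under 0.05, and 19 sums were higher and 50 lower. Same-numbered samples did not deviate together (correlations of -0.0996 to 0.0088 for shares), so the numbers are not pairs. Depth is unknown, so counting error could not be separated from the spread between samples.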

Other observations

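The 3 members described here were picked after their values were seen. Sprr2b, named for a small proline-rich protein, had as proximal end the last exon of its near copy Sprr2a1, so the split of reads between copies is uncertain. That end fell from 396, 411, 296 and 522 FPKM in WT to 13.1, 61.4, 17.6 and 20.8 FPKM in MG53-TG (limma adjusted p = 0.000267). Its other end was listed in MG53-TG 3 alone, at 739 FPKM. Glrx, a glutaredoxin, had 2 ends with no annotated last exon, of which the proximal one rose from 30.3 to 37.1 FPKM to 94.1, 87.5, 133 and 110 FPKM (limma adjusted p = 9.17e-05).

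Pex14, a peroxisomal import factor, had its distal end in the non-coding gene Gm13205. The distal share was 0% in WT 1 and 2, 97.8% and 90.4% in WT 3 and 4, and 90.03 to 98.1% in MG53-TG, so that the WT samples fell on both sides.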
